A study of Homo sapiens with 4 samples.

Results

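Ephrins and their Eph receptors were examined as 10 genes, found by symbol among the 48162 genes of a raw count table. The 10 genes encode the EphA receptors EPHA2, EPHA4 and EPHA7, the EphB receptors EPHB2, EPHB3 and EPHB4, the ephrin-A ligands EFNA1 and EFNA5, and the ephrin-B ligands EFNB1 and EFNB2. RNA was sequenced from MDA-MB-453, an established human breast cancer cell line, in 2 groups of 2 libraries each. The tested cells were labelled TMEM9 KD (knockdown of TMEM9, a membrane protein of lysosomes and endosomes), and the others wild type (WT). No other treatment, allele or time is given for either group, and neither the means of the knockdown nor whether the cells were a clone or a pool is given in the sources used here. Separate cultures are not named for libraries of the same group, so the p-values speak of differences among these 4 libraries, whose spread may be technical only.

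Eph receptors are receptor tyrosine kinases whose ligands, the ephrins, are themselves anchored in the membrane of a neighbouring cell. Ephrin-A ligands hold on to the membrane by a lipid anchor and bind mainly EphA receptors, while ephrin-B ligands span the membrane and bind mainly EphB receptors, with EPHA4 binding ligands of both kinds. Contact sets off forward signalling in the cell with the receptor and reverse signalling in the cell with the ligand, and it directs cell repulsion, adhesion, boundary formation and, in breast epithelium and tumours, growth and movement.

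TMEM9 itself (ENSG00000116857) had 3.11 and 4.46 CPM (the usual scaling of counts to library size, here with TMM factors) in the TMEM9 KD libraries, against 74.8 and 83.2 CPM in the WT libraries. Its log2 fold change was -4.37 (SE 0.126, adjusted p = 4.12e-52 by edgeR's quasi-likelihood test). Totals were 15960941 and 17065126 counts in the TMEM9 KD libraries and 15323843 and 18517337 counts in the WT libraries. Of 14923 genes tested, 57.7% passed an adjusted p of 0.05 with edgeR's quasi-likelihood test, 28.7% higher and 29% lower in TMEM9 KD, so any single call lies within a broad difference. Mitochondrially encoded transcripts took 3.18% and 2.83% of the counts in TMEM9 KD and 3.98% in each WT library. The libraries went against the cell line's usual description in part. Of 16 luminal and apocrine markers, 9 were tested, of which 3 rose, 4 fell and 2 did not pass. FGFR4, a faller, averaged 3.35 CPM in TMEM9 KD cells and 35.2 CPM in WT cells. The risers GATA3 and FOXA1 averaged 6.36 and 7.87 CPM in TMEM9 KD cells and 2.56 and 2.83 CPM in WT cells. ERBB2 and KRT8 averaged 54.3 and 269 CPM in TMEM9 KD cells and 63.6 and 282 CPM in WT cells. Yet 8 of the 16, EPCAM and KRT19 among them, had at most 20 counts in any library, and PIP had 0. The list was drawn up for this cell line's luminal and apocrine type. No other profile of the line was compared, so which low markers go against it was not tested. Some collagen genes of fibroblasts were abundant. COL1A1, COL3A1 and COL6A2 averaged 1384, 31.1 and 167 CPM in TMEM9 KD cells and 822, 955 and 487 CPM in WT cells. The other fibroblast markers were mixed. PDGFRA averaged 147 CPM in TMEM9 KD cells and 244 CPM in WT cells, and PDGFRB 42.9 and 52.1 CPM. THY1 and FAP had at most 167 and 132 counts in any library. Scarcer still were the collagen gene COL1A2, LUM and DCN, with at most 16, 28 and 53 counts in any library. The series text calls the profiles retinal, but 7 of 9 photoreceptor genes had at most 20 counts in any library. The other 2 had at most 235 counts in a library, fewer in TMEM9 KD than in WT.

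All 10 ephrin and Eph receptor genes had counts in every library and were tested. With edgeR's quasi-likelihood test, 4 passed the threshold higher in TMEM9 KD cells (EPHA2, EPHA4, EPHB2 and EFNB2) and 5 lower (EPHB3, EPHB4, EFNA1, EFNA5 and EFNB1). EPHA7 did not pass. These 9 of 10 stand beside 57.7% of all genes tested, with 28.7% higher and 29% lower. The groups did not overlap for 9 of the 10 genes, against 77.6% of all genes tested. TMEM9 KD lay above for 4 of them, against 39.1% of all genes, and below for 5, against 38.6%. A change of at least 2-fold that passed the test was found for EPHA4 (higher) and for EPHB3 and EFNB1 (lower), which is 3 of 10 genes, where 17.4% of all genes tested had one, 7.24% higher and 10.1% lower. The median log2 fold change of the 10 genes was -0.09, beside 0.01 for all genes tested. No test was made of these shares, which rest on 10 genes. In RNA from whole cultures, fewer cells that carry a transcript and less of it per cell cannot be told apart.

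**Figure D1:**
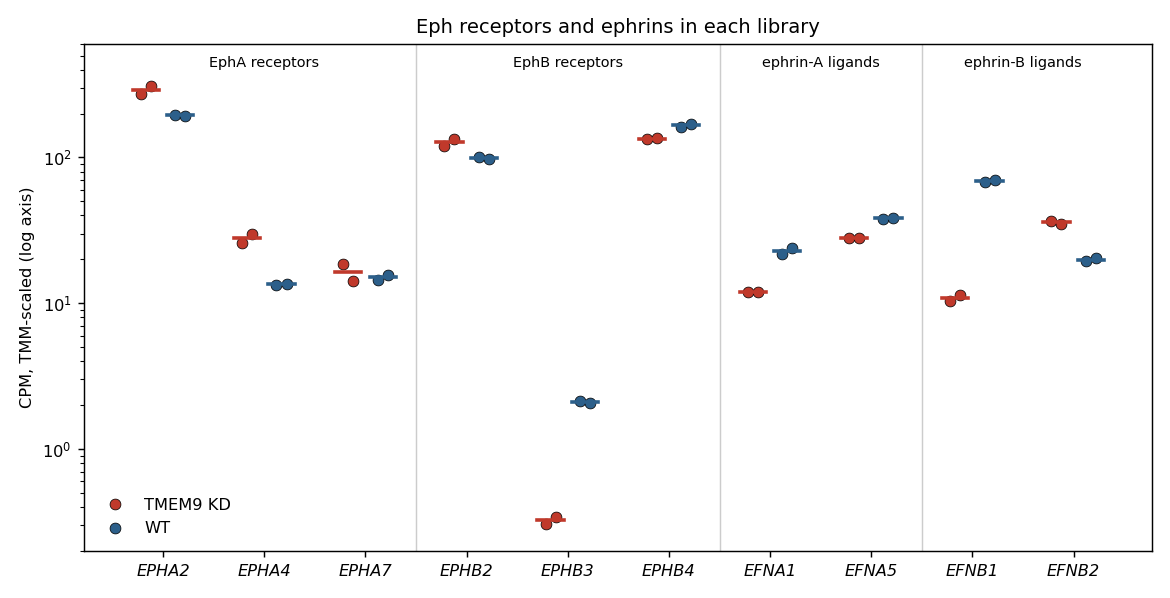
Level of each ephrin and Eph receptor gene as CPM with TMM factors, on a log axis, with each point a library (TMEM9 KD left of WT). EFNB1 sits between 10.4 and 11.3 CPM in TMEM9 KD libraries and between 67.7 and 70.1 CPM in WT libraries, and EPHA7 is the gene whose groups overlap.

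Among EphA receptors, EPHA2 (ENSG00000142627, chromosome 1) and EPHA4 rose, and EPHA7 did not pass the test. EPHA2, a receptor abundant in many epithelial tumours, had 271 and 309 CPM in TMEM9 KD libraries, against 196 and 193 CPM in WT libraries. Both TMEM9 KD libraries were above both WT libraries, and the mean was 1.49-fold higher, at 289.9 ± 27.2 CPM in TMEM9 KD and 194 ± 2.12 CPM in WT (SD, n = 2 each). The log2 fold change of EPHA2 was 0.58 (SE 0.0607, adjusted p = 2.73e-14 by edgeR's quasi-likelihood test).

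EPHA4 (ENSG00000116106, chromosome 2), a receptor best known for guiding axons, had 25.9 and 29.8 CPM in TMEM9 KD libraries and 13.4 and 13.6 CPM in WT libraries. Each TMEM9 KD library held close to double the level of either WT library, with a log2 fold change of 1.04 (SE 0.122, adjusted p = 2.11e-12 by edgeR's quasi-likelihood test). An increase as large was seen in 7.21% of all genes tested. EPHA7 (ENSG00000135333, chromosome 6), a receptor known from the developing mouse cortex, had 18.5 and 14.2 CPM in TMEM9 KD libraries and 14.5 and 15.6 CPM in WT libraries. The highest and the lowest of these values both came from TMEM9 KD, and the log2 fold change of 0.12 (SE 0.135) did not pass edgeR's quasi-likelihood test (adjusted p = 0.482). Without TMEM9 KD replicate 1 it was -0.08, so no direction is given for EPHA7.

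The 3 EphB receptors divided. EPHB2 (ENSG00000133216, chromosome 1), which with EPHB3 positions cells along the crypts of the mouse intestine, had 119.6 and 134 CPM in TMEM9 KD libraries and 101 and 97.7 CPM in WT libraries. The groups did not overlap, and EPHB2 rose by a log2 fold change of 0.35 (SE 0.0693, adjusted p = 6.45e-06 by edgeR's quasi-likelihood test), which is 1.28-fold.

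EPHB4 (ENSG00000196411, chromosome 7), the main receptor of EFNB2 and known from veins and from mammary epithelium, had 133 and 136 CPM in TMEM9 KD libraries and 162 and 171 CPM in WT libraries. Here the TMEM9 KD libraries were the low ones, with a log2 fold change of -0.30 (SE 0.0644, adjusted p = 2.80e-05 by edgeR's quasi-likelihood test), a WT mean 1.23-fold above that of TMEM9 KD. With the median of each chromosome removed, an alternative added after seeing the data, it was -0.20. The changes of EPHB2 and EPHB4 were small, and neither passed a test against a change of 1.5-fold, for which the adjusted p was 1 for each.

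EPHB3 (ENSG00000182580, chromosome 3) was the scarcest of the 10 genes per exon length in both groups. It had 5 and 6 counts in the TMEM9 KD libraries, against 32 and 37 counts in the WT libraries, or 0.305 and 0.343 CPM against 2.14 and 2.06 CPM. The groups were far apart relative to the spread within each, although they rest on few reads. EPHB3 had a log2 fold change of -2.66 (SE 0.507, adjusted p = 3.83e-06 by edgeR's quasi-likelihood test), with a WT mean 6.33-fold above that of TMEM9 KD, and 3.03% of all genes tested fell as far.

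Both ephrin-A ligands fell. EFNA1 (ENSG00000169242, chromosome 1), the ligand most often paired with EPHA2, had 12.0 and 11.9 CPM in TMEM9 KD libraries and 21.7 and 23.8 CPM in WT libraries. Its levels in the TMEM9 KD libraries were nearly alike and below both WT libraries, and the log2 fold change was -0.93 (SE 0.129, adjusted p = 9.11e-10 by edgeR's quasi-likelihood test). EFNA5 (ENSG00000184349, chromosome 5), which in the mouse patterns the projection from retina to midbrain, had 27.9 and 28.2 CPM in TMEM9 KD libraries and 37.8 and 38.6 CPM in WT libraries. Both TMEM9 KD libraries were again the low ones, with a log2 fold change of -0.45 (SE 0.0984, adjusted p = 5.92e-05 by edgeR's quasi-likelihood test). EPHA2 thus rose while both of these ephrin-A ligands fell.

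The ephrin-B ligands moved in opposite directions. EFNB1 (ENSG00000090776, chromosome X), a ligand whose loss causes craniofrontonasal syndrome in humans, had 10.4 and 11.3 CPM in TMEM9 KD libraries, against 67.7 and 70.1 CPM in WT libraries. The 2 libraries of each group lay close together, with means of 10.8 ± 0.679 CPM in TMEM9 KD and 68.9 ± 1.69 CPM in WT (SD, n = 2 each), and WT was 6.35-fold higher. The log2 fold change of EFNB1 was -2.67 (SE 0.104, adjusted p = 2.04e-41 by edgeR's quasi-likelihood test), the smallest p of the 10 genes, and 3.01% of all genes tested fell as far.

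EFNB2 (ENSG00000125266, chromosome 13), a ligand that marks arteries in the mouse embryo and binds EPHB4, had 36.9 and 34.7 CPM in TMEM9 KD libraries and 19.4 and 20.4 CPM in WT libraries. Both TMEM9 KD libraries were high, and the log2 fold change was 0.84 (SE 0.107, adjusted p = 4.36e-11 by edgeR's quasi-likelihood test). An increase as large was seen in 9.80% of all genes tested. An antisense gene, AL138689.2, covers 1313 of the 5019 exon bases of EFNB2 in GENCODE 29, but is not among the counted genes. As the strand setting of the counting is not given, reads of the pair cannot be told apart. Of the other genes, EPHA4 shares 353 of 7554 exon bases with another annotated gene, EPHB4 shares 69 of 6435, and EPHB2 shares 34 of 12516. Of these overlapping genes, only that of EPHB4 is among the counted genes.

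Because these ligands moved apart, their RefSeq promoter windows (GRCh38.p14, 250 bases before to 50 after the annotated start, on the strand of the gene) are shown side by side. EFNB1 lies at chrX:68828771-68829070 on the plus strand and EFNB2 at chr13:106535613-106535912 on the minus strand. Capitals mark the GC box (GGGCGG) and the CCAAT box (CCAAT), each read on either strand.
EFNB1: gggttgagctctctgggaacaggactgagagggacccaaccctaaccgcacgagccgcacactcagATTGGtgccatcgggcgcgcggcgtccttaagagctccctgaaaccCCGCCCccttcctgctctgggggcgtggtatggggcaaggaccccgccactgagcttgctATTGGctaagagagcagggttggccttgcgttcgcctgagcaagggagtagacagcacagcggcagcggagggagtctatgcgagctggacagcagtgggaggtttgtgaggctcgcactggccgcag
EFNB2: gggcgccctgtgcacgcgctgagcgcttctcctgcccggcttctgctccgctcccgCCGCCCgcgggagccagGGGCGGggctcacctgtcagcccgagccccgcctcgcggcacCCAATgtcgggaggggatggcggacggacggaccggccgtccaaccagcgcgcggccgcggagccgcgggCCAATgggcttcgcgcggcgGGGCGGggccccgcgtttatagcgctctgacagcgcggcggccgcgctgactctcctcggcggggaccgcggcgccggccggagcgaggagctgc
The EFNB1 window holds 1 GC box, 2 CCAAT boxes and 18 CpG dinucleotides in 63.7% GC, and the EFNB2 window 3 GC boxes, 2 CCAAT boxes and 49 CpG in 78.7% GC. A CpG number of 49 or more is found in 1.6% of the 35116 promoter windows. The pair thus shares the CCAAT box, which 34.6% of all windows hold, and differs in CpG density. EFNB2 also has 1 match to the TATA box TATAAA on the other strand (not in capitals), and EFNB1 has none. All 10 genes matched the table, in 14 windows. A GC box was in each of the 14 windows, against 45.0% of all windows, and 13 of the 14 had more CpG than the median of 14 per window over all windows. The TATA box TATAAA was in 2 of the 14 (11.5% of all windows), the TCF/LEF core TCAAAG in 1 (12.9%), the AP-1 site TGANTCA in 0 (7.71%) and the E-box CACGTG in 0 (7.26%), all on either strand. Windows of 1 gene overlap for some genes, so they are not independent. These matches describe the letters of the windows and do not show binding.

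EFNB2 rose on a chromosome whose genes mostly fell. Of 231 tested genes on chromosome 13, 75.8% were lower and 5.63% higher in TMEM9 KD cells by edgeR's quasi-likelihood test, with a median log2 fold change of -0.62, while the median over all genes tested was 0.01. EFNB2 had the 6th highest log2 fold change of the 231, and lay 1.47 above the chromosome's median. The fit with chromosome medians removed subtracts this median, so its log2 fold change of 1.47 for EFNB2 is the same quantity, not a further result. Among its 10 nearest tested genes, 7 fell, 2 rose and 1 did not pass the test, with a median log2 fold change of -0.70. Of the genes adjacent to EFNB2 in order, ARGLU1, a splicing cofactor, averaged 50.04 CPM in TMEM9 KD and 87.9 CPM in WT, a log2 fold change of -0.81 (adjusted p = 4.62e-16 by edgeR's quasi-likelihood test), or -0.19 with chromosome medians removed. On the other side LINC00460, a long noncoding RNA, averaged 13.6 CPM in TMEM9 KD and 5.67 CPM in WT, a log2 fold change of 1.25 (adjusted p = 1.15e-09 by edgeR's quasi-likelihood test). The part of the chromosome-wide shift in any of these values was not tested. For the chromosomes of the other 9 genes the medians lay between -0.10 (chromosome 7, EPHB4) and 0.10 (chromosome 5, EFNA5).

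**Figure D2:**
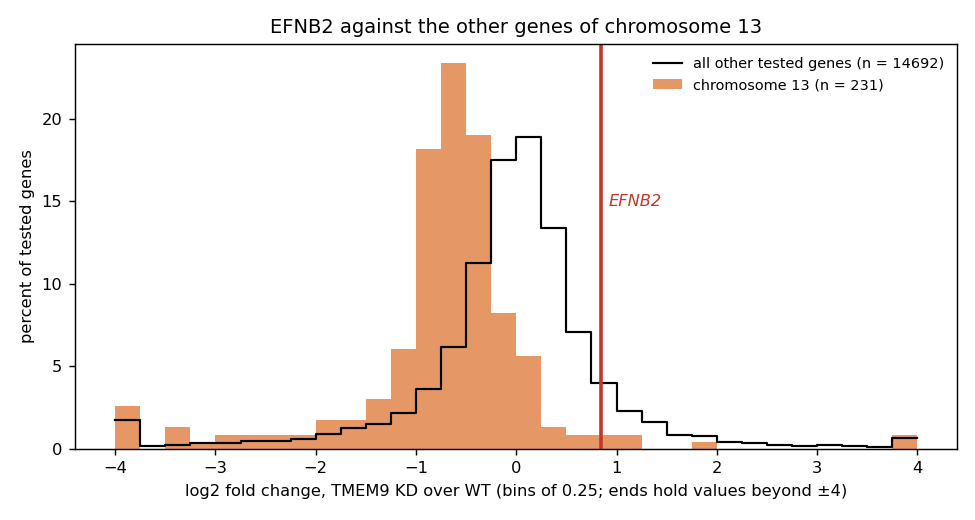
Percent of tested genes (vertical axis) by log2 fold change of TMEM9 KD over WT (horizontal axis, bins of 0.25), for chromosome 13 and for the other chromosomes, with a line at EFNB2. The 231 genes of chromosome 13 centre on -0.62, and EFNB2 lies at 0.84.

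Levels of different genes were compared per length, as RPKM (TMM-scaled CPM per kilobase of GENCODE 29 exon). In TMEM9 KD cells the order was EPHA2 (69.7 ± 6.55 RPKM), EPHB4 (20.9 ± 0.365), EPHB2 (10.2 ± 0.839), EFNB2 (7.13 ± 0.306), EFNA5 (4.92 ± 0.0339), EFNA1 (4.70 ± 0.0149), EPHA4 (3.69 ± 0.364), EFNB1 (3.27 ± 0.205), EPHA7 (2.19 ± 0.413) and EPHB3 (0.0715 ± 0.00598; SD, n = 2). In WT cells it was EPHA2 (46.7 ± 0.510 RPKM), EPHB4 (25.8 ± 0.991), EFNB1 (20.8 ± 0.509), EFNA1 (8.97 ± 0.592), EPHB2 (7.95 ± 0.203), EFNA5 (6.70 ± 0.100), EFNB2 (3.97 ± 0.152), EPHA7 (2.02 ± 0.106), EPHA4 (1.79 ± 0.0175) and EPHB3 (0.463 ± 0.0127; SD, n = 2). The libraries of neighbours in either order did not overlap. Nearest to overlap were EPHA4 and EFNB1 in TMEM9 KD cells, whose means differed by little more than the SD of EPHA4. EPHA2 and EPHB4 led both orders and EPHB3 closed both, while EFNB1 stood below EPHA4 in TMEM9 KD cells and just below EPHB4 in WT cells.

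Within the ephrin-B class the leading ligand differed between the groups. EFNB2 made up 68.5 ± 2.18% of the summed RPKM of EFNB1, EFNB2 and EFNB3 in TMEM9 KD cells and 15.2 ± 0.311% in WT cells, and EFNB1 made up 31.4 ± 2.31% in TMEM9 KD cells and 79.8 ± 0.534% in WT cells (SD, n = 2 each). The class as a whole summed to 10.4 ± 0.114 RPKM in TMEM9 KD cells and 26.1 ± 0.464 RPKM in WT cells. In the EphA class, EPHA2 held 91.2 ± 0.765% of the summed RPKM in TMEM9 KD cells and 91.4 ± 0.0982% in WT cells, while the sum was 76.4 ± 6.53 RPKM in TMEM9 KD and 51.1 ± 0.503 RPKM in WT. EphB receptors summed to 34.7 ± 1.45 RPKM in TMEM9 KD and 37.9 ± 0.0305 RPKM in WT, and ephrin-A ligands to 13.5 ± 1.11 RPKM in TMEM9 KD and 22.6 ± 0.0700 RPKM in WT.

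Over all 22 Eph and ephrin genes of the table, the summed RPKM of the 14 receptors divided by that of the 8 ligands was 4.55 and 4.74 in TMEM9 KD libraries and 1.85 and 1.81 in WT libraries. Receptor transcripts thus outnumbered ligand transcripts per length in each library, by more in TMEM9 KD cells. EPHA2 (69.7 RPKM in TMEM9 KD, 46.7 in WT) and EFNB1 (3.27 in TMEM9 KD, 20.8 in WT) differed most in RPKM. EphB receptors summed to less in TMEM9 KD (34.7 RPKM) than in WT (37.9 RPKM), as did ephrin-B ligands (10.4 and 26.1 RPKM). The ratio was 5.65 and 5.68 in TMEM9 KD and 2.29 and 2.24 in WT for the A class, and 3.20 and 3.45 in TMEM9 KD and 1.47 and 1.44 in WT for the B class. The groups did not overlap in any of these ratios, for which no test was made, since an exact two-sided permutation test of 2 libraries against 2 cannot go below p = 0.333.

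**Figure D3:**
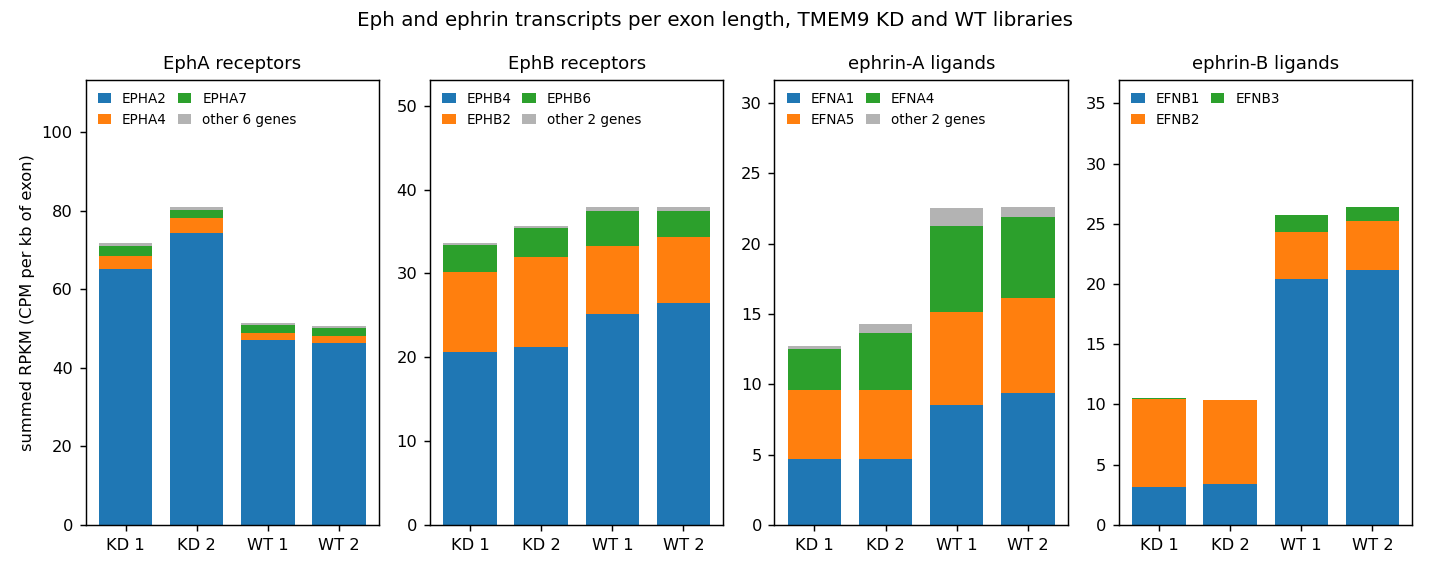
Summed RPKM (CPM per kilobase of exon) of EphA receptors, EphB receptors, ephrin-A and ephrin-B ligands in each library, TMEM9 KD left of WT, each bar stacked by gene. In the ephrin-B panel the bars reach about 10.4 RPKM in TMEM9 KD and 26.1 RPKM in WT, with EFNB2 the larger share in TMEM9 KD and EFNB1 in WT.

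Of the other 12 genes of the family, 8 were tested. EPHA3, EPHA6 and EPHB1 rose, EPHA5, EFNA3, EFNA4 and EFNB3 fell, and EPHB6, a receptor without kinase activity, did not pass edgeR's quasi-likelihood test (log2 fold change -0.14, adjusted p = 0.375). The 7 of 8 that passed stand beside 57.7% of all genes tested, and the median log2 fold change of the 8 was -0.45. EFNB3, the third ephrin-B ligand, had 1 and 0 counts in TMEM9 KD libraries and 70 and 68 counts in WT libraries, a WT to TMEM9 KD ratio of 142 (exact Clopper-Pearson 95% interval 25 to 5640, counting error only). EPHA5 had 0 counts in both TMEM9 KD libraries and 20 and 27 counts in the WT libraries, and was at least 16.1-fold lower in TMEM9 KD, taking 3 counts over both libraries as the floor.

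EPHB1 went the other way, with 23 and 21 counts in TMEM9 KD libraries and 0 and 1 counts in WT libraries, a TMEM9 KD to WT ratio of 42.8 (7.29 to 1730). EPHA6 had 11 and 16 counts in TMEM9 KD and 0 and 3 counts in WT, a ratio of 8.76 (2.70 to 45.1), and its call was lost without WT replicate 1 (adjusted p = 0.0818 by edgeR's quasi-likelihood test). EFNA4 had 3.66 and 5.09 CPM in TMEM9 KD and 7.68 and 7.28 CPM in WT, a log2 fold change of -0.77 (SE 0.207, adjusted p = 0.000954 by edgeR's quasi-likelihood test). The calls of EPHA3 and EFNA3 rest on single libraries or on the tool. EPHA3 had 3.41 and 3.49 CPM in TMEM9 KD and 2.07 and 1.61 CPM in WT (adjusted p = 0.00861 by edgeR's quasi-likelihood test), which did not pass with DESeq2 (adjusted p = 0.0675) or without WT replicate 2 (edgeR adjusted p = 0.122). EFNA3 had 0.366 and 1.14 CPM in TMEM9 KD and 2.27 and 1.33 CPM in WT (adjusted p = 0.0184 by edgeR's quasi-likelihood test), with DESeq2's adjusted p at 0.119 and edgeR's at 0.305 without TMEM9 KD replicate 1 and 0.320 without WT replicate 1. Of the 4 untested genes, EPHA10 had 0 counts, EPHA1 had 9 and 10 counts in TMEM9 KD and 14 and 5 in WT, EPHA8 had 3 and 3 in TMEM9 KD and 0 and 0 in WT, and EFNA2 had 0 and 0 in TMEM9 KD and 1 and 0 in WT. EFNA3 and EFNA4 share 853 of 1909 and 189 of 1263 exon bases with AL691442.1, and EPHA5 shares 535 of 9833 with its antisense gene EPHA5-AS1, so some of their reads may belong to those genes.

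**Figure D4:**
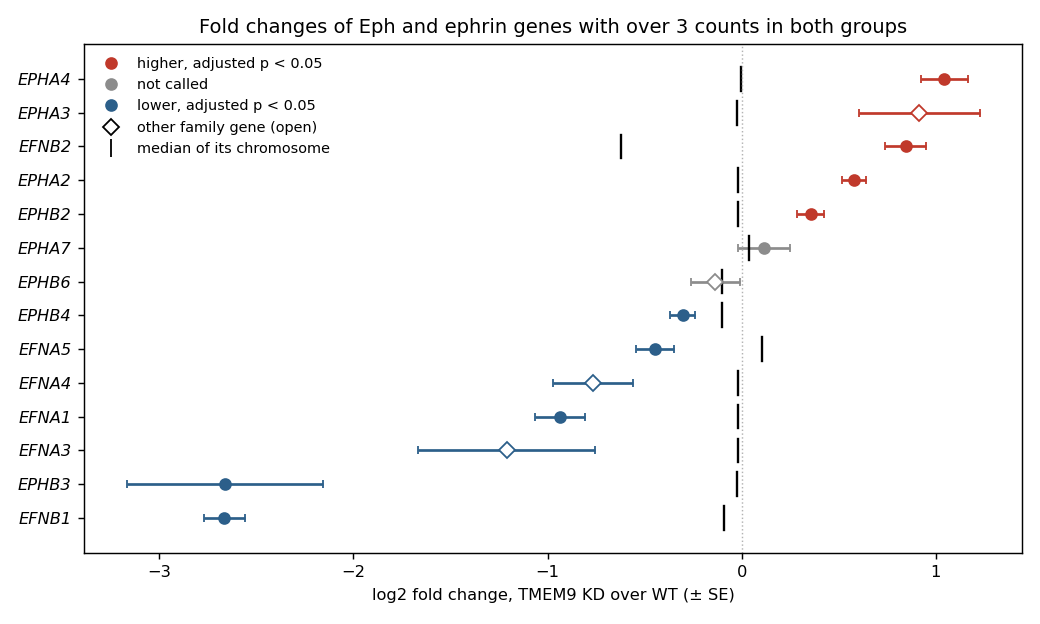
Log2 fold change of TMEM9 KD over WT (horizontal axis, bars are SE) for the tested Eph and ephrin genes with over 3 counts in both groups. EFNB1 (-2.67) and EPHB3 (-2.66) lie far to the left, and EPHA4 (1.04) and EFNB2 (0.84) to the right.

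Genes that carry forward signalling inside the cell were read from lists of known partners. Of 8 kinases of the SRC and ABL families and their partners, 6 fell and 2 rose, and the median log2 fold change was -0.60. SRC, the kinase that acts with Eph receptors at the membrane, averaged 38.8 ± 2.38 CPM in TMEM9 KD and 65.9 ± 2.77 CPM in WT (log2 fold change -0.76), and its relative FYN had a log2 fold change of -1.03. CDK5, a kinase that acts on ephexin in mouse neurons, had -0.73. Without either WT replicate, 1 kinase rose in place of 2. ABL2, a kinase of the actin cytoskeleton, rose to 138 and 149.5 CPM in TMEM9 KD libraries, against 66.5 and 67.9 CPM in WT libraries, a log2 fold change of 1.10 (SE 0.0710, adjusted p = 8.05e-26 by edgeR's quasi-likelihood test).

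Of 20 tested adaptors and phosphatases, 5 rose, 8 fell and 7 did not pass, with a median of -0.00. The number that rose was 3 with DESeq2, without TMEM9 KD replicate 2 and without WT replicate 1. NCK1, an adaptor that links receptors to actin, had 27.9 and 22.1 CPM in TMEM9 KD and 56.7 and 52.9 CPM in WT, and PTPRO, a phosphatase of Eph receptors in the chick, 0.427 and 0.572 CPM in TMEM9 KD and 8.95 and 8.06 CPM in WT. Their log2 fold changes were -1.13 and -4.06. SHC1, an adaptor towards RAS, had -0.64, and RIN1, a RAB5 exchange factor, had 0.58. GRB7, an adaptor, had 2 counts over the TMEM9 KD libraries and 42 over the WT libraries, a WT to TMEM9 KD ratio of 21.6 (exact 95% interval 5.61 to 184).

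Exchange factors and GTPase-activating proteins of small GTPases turn receptor signals into changes of the cytoskeleton. Of 15 tested, 2 rose, 6 fell and 7 did not pass, with a median of -0.12. The number that rose was 1 with DESeq2 and without WT replicate 1, and the number that fell was 3 without WT replicate 2. ARHGEF16, an exchange factor that binds EPHA2, had 0.915 and 1.26 CPM in TMEM9 KD libraries, against 26.2 and 27.1 CPM in WT libraries. The TMEM9 KD libraries held little of it, with a log2 fold change of -4.60 (SE 0.199, adjusted p = 5.06e-38 by edgeR's quasi-likelihood test). NGEF, the exchange factor ephexin of EPHA4, averaged 0.376 ± 0.359 CPM in TMEM9 KD and 2.41 ± 0.760 CPM in WT, VAV3 16.6 ± 2.55 CPM in TMEM9 KD and 38.2 ± 1.36 CPM in WT, and DOCK4 58.0 ± 3.89 CPM in TMEM9 KD and 43.1 ± 0.323 CPM in WT. Their log2 fold changes were -2.64, -1.20 and 0.43. NGEF had 0.122 CPM in TMEM9 KD replicate 1 and 0.629 CPM in TMEM9 KD replicate 2, and its log2 fold change was -1.93 without the first of these and -4.24 without the other. Of 14 small GTPases and effectors, 3 rose, 4 fell and 7 did not pass (median -0.05). LIMK2, a kinase of cofilin, had a log2 fold change of -0.86, and PAK1, a kinase downstream of RAC, -0.50. The risers RHOB, PAK2 and CFL1 had small log2 fold changes of 0.28, 0.17 and 0.15. Without WT replicate 1 the number that rose was 0, and without WT replicate 2 it was 1.

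Reverse signalling runs through proteins that meet the tail of ephrin-B ligands or the membrane patch of ephrin-A ligands. Of 11 tested, 3 rose, 6 fell and 2 did not pass, with a median of -0.34. The number that rose was 0 with DESeq2 and without WT replicate 2, and 1 without WT replicate 1 or TMEM9 KD replicate 2. NGFR, the p75 neurotrophin receptor and a partner of ephrin-A ligands in mouse axons, had 0.427 and 0.458 CPM in TMEM9 KD libraries, against 43.7 and 41.0 CPM in WT libraries. Its log2 fold change was -6.56 (SE 0.209, adjusted p = 1.57e-48 by edgeR's quasi-likelihood test). SDCBP (syntenin), which binds the ephrin-B tail by PDZ domains, averaged 158 ± 18.0 CPM in TMEM9 KD and 269 ± 6.83 CPM in WT, and PTPN13, a phosphatase with PDZ domains, 56.6 ± 0.157 CPM in TMEM9 KD and 111 ± 8.63 CPM in WT. Their log2 fold changes were -0.76 and -0.97. The risers with the larger changes rest on few reads. CNKSR1, a scaffold with a PDZ domain, averaged 2.03 ± 0.284 CPM in TMEM9 KD and 0.784 ± 0.402 CPM in WT (log2 fold change 1.40, 0.92 without WT replicate 2), and PARD6A, a polarity protein, 1.31 ± 0.393 CPM in TMEM9 KD and 0.584 ± 0.119 CPM in WT (1.16). The call of PARD6A was lost without each library in turn, and that of CNKSR1 with DESeq2 (adjusted p = 0.0504), without TMEM9 KD replicate 2 (edgeR adjusted p = 0.0646) and without WT replicate 2 (edgeR adjusted p = 0.162).

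Proteases cut Eph receptors and ephrins from the surface and so end contact, and some phosphodiesterases release lipid-anchored proteins. The list of shedding enzymes and their subunits also held the phosphodiesterase genes GDPD5 and GDE1. Of its 15 tested genes, 10 fell, 2 rose and 3 did not pass, with a median of -0.35. GDE1, whose part in shedding is not assumed here, was among those that did not pass. The risers were PSEN2 (log2 fold change 0.52) and GDPD5 (0.48), and without WT replicate 1 neither passed. MMP14, a membrane-bound metalloprotease that cleaves EPHA2, had 2.38 and 2.57 CPM in TMEM9 KD libraries, against 209.6 and 213 CPM in WT libraries. Both TMEM9 KD libraries were far below both WT libraries, with a log2 fold change of -6.41 (SE 0.111, adjusted p = 1.49e-70 by edgeR's quasi-likelihood test). RHBDL2, an intramembrane protease that cleaves ephrin-B3, averaged 0.886 ± 0.0400 CPM in TMEM9 KD and 3.43 ± 0.0595 CPM in WT (log2 fold change -1.94). Of the gamma-secretase genes, APH1B and NCSTN had -1.30 and -0.58, unlike PSEN2, and ADAM17, a sheddase, had -0.55. Beside 57.7% of all genes tested that passed, the lists passed in 13 of 20 adaptors, 8 of 8 kinases, 8 of 15 exchange factors and activators, 7 of 14 GTPases and effectors, 9 of 11 reverse signalling partners and 12 of 15 shedding enzymes. TIAM1, which fell, is counted both among the exchange factors and among the reverse signalling partners. It had 12 counts over the TMEM9 KD libraries and 41 over the WT libraries, and did not pass with DESeq2 (adjusted p = 0.0980).

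**Figure D5:**
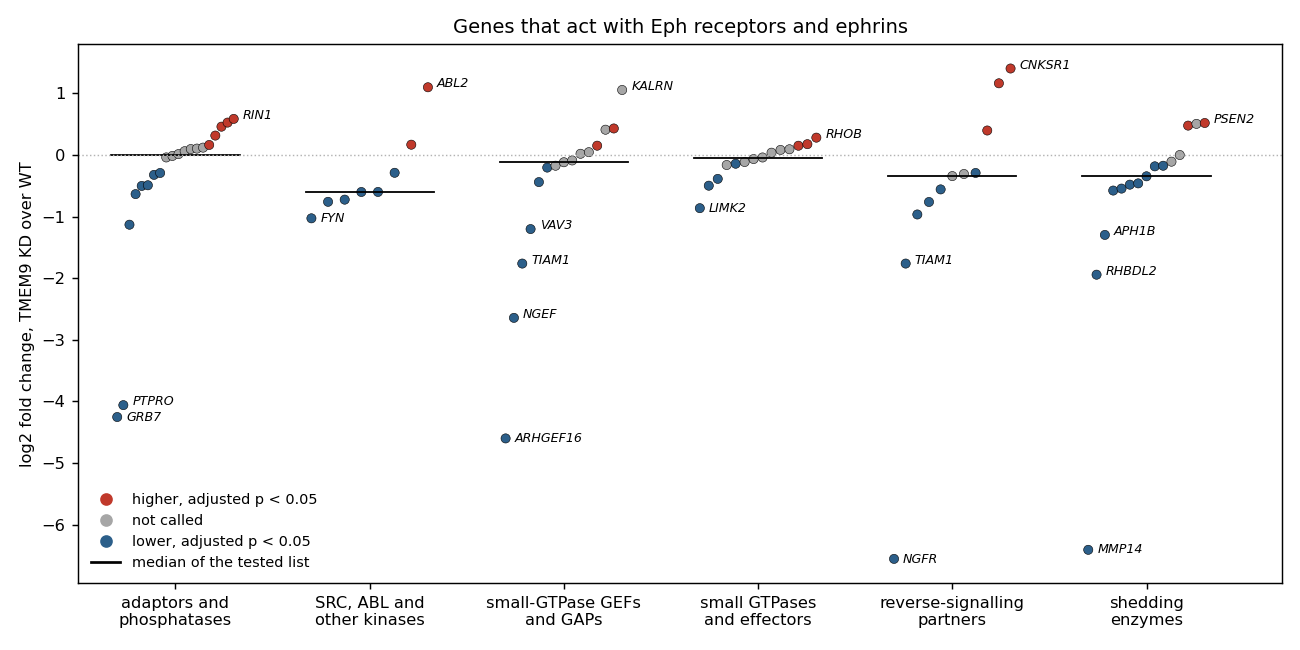
Log2 fold change of TMEM9 KD over WT (vertical axis) for each tested gene of 6 lists of genes that act with Eph receptors and ephrins, with each point a gene and a bar at the list's median. The medians run from -0.60 for the kinases to -0.00 for the adaptors and phosphatases, and the lowest points are NGFR (-6.56) and MMP14 (-6.41).

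Markers of other cell types were read beside these values. All 8 tested basal epithelial markers fell, with a median log2 fold change of -5.09, and their summed level was 468 and 467 CPM in TMEM9 KD and 799 and 811 CPM in WT. ITGA6, an integrin with a log2 fold change of -0.23, made up 62.9% of the WT sum, with 430.5 CPM in TMEM9 KD and 506 CPM in WT, while TP63 averaged 32.5 CPM in TMEM9 KD and 155 CPM in WT, and ITGB4 2.61 CPM in TMEM9 KD and 102 CPM in WT. KRT5 and KRT14 had 0 counts in TMEM9 KD. Of 4 tested leukocyte markers 1 rose and 3 fell, with a sum of 11.4 and 12.9 CPM in TMEM9 KD and 198 and 197 CPM in WT. LCP1, an actin-bundling protein, made up 93.2% of the WT sum, and CD3E and LYZ had 0 counts. Fibroblast markers (4 of 9 tested rose, 5 fell) summed to between 1693 and 1877 CPM in TMEM9 KD and between 2555 and 2599 CPM in WT. Endothelial markers, of interest because EPHB4 and EFNB2 mark vessels, summed to 17.2 and 14.8 CPM in TMEM9 KD and 18.0 and 17.8 CPM in WT, and 6 of the 9 matched had at most 20 counts in any library. ERG made up 80.6% of the WT sum. Of 3 tested endothelial markers, 0 rose, 1 fell and 2 did not pass. The faller was EGFL7, with 23 counts over the TMEM9 KD libraries and 84 over the WT libraries (log2 fold change -1.89). CDH5, TIE1 and VWF, not tested, had 12, 12 and 15 counts over the TMEM9 KD libraries and 1 count each over the WT libraries. The part of the basal, leukocyte, fibroblast and endothelial markers in the ephrin and Eph receptor results was not tested.

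By the distance between centred log2 CPM over the 4 libraries, a description with no test, the genes most like EPHA4 were FJX1 (distance 0.0287, log2 fold change 1.05), PINK1 (0.0292, 1.03) and CAD (0.0295, 1.06). The genes most like EFNB1 were COL5A3 (distance 0.0779, log2 fold change -2.65), COL15A1 (0.0782, -2.78) and ACSF2 (0.0852, -2.62).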

How the data were processed

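RNA was sequenced from 2 TMEM9 KD and 2 WT libraries. The authors deposited raw counts per gene for 48162 Ensembl genes. Per the labels' protocols, each library took 1 ug of total RNA and standard Illumina reagents. CASAVA, Bowtie 0.12.2, hg19 and mm8 appear without roles in the submitters' processing notes. The sources used here do not give the counting tool, its annotation or its strand setting. Symbols came from a name table for 45038 genes and from GENCODE 29 for 304, and 2820 had none. GENCODE 29 and RefSeq (GRCh38.p14) are of another build than hg19 and served for names, exon lengths, gene order and promoter sequence.

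Counts were tested in edgeR 4.0.16 (R 4.3.3) by its quasi-likelihood F test, with TMM factors, filterByExpr (minimum count 10, minimum total 15), group as the only term, and Benjamini-Hochberg adjustment over 14923 genes at 0.05. Its SE is the size of the log2 fold change divided by the root of F, on 2 residual degrees of freedom before moderation. The fit was tried on simulated counts with the same spread in both groups, which the real pairs did not have. It called 38% of genes changed 1.3-fold, 67.3% of those changed 1.5-fold, 87.2% of those changed 2-fold and 100% of those changed 4-fold. Small changes, and some of 2-fold, can thus be missed. Totals of 15323843 to 18517337 counts set the precision, and intervals cover counting error only. Chi-square over degrees of freedom between libraries of a group was 4.82 for TMEM9 KD and 2.04 for WT, above counting noise, so neither pair was treated as repeat deposits of the same library. This does not show that they are separate cultures. The 10 genes, the lists and the tests were chosen with earlier results of these data known. Named genes are TMEM9, all 22 family genes, some of up to 6 genes per list with the largest change past the threshold, and the 3 genes nearest to the largest riser and faller of the 10. GDPD5, GDE1, COL1A1, LCP1 and other markers, and the neighbours of EFNB2, were named after their values were seen.

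Alternatives were DESeq2 1.42.0, limma 3.58.1 voom, other scalings and filters, a test against 1.5-fold, a replicate block, leaving out the 20 most abundant genes or each library, and removal of chromosome medians.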

Additional observations from a re-analysis of the deposited data

How the results depend on the processing

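Under 15 alternatives, 144 of 149 recomputed log2 fold changes of the 10 genes kept their direction and their side of the threshold. Against 1.5-fold, EPHA2 (edgeR adjusted p = 0.830), EPHB2, EPHB4 and EFNA5 (1 each) no longer passed, leaving 2 higher and 3 lower of the 10, 4 higher and 18 lower of the other family and list genes (20 and 43 otherwise), and 1111 higher and 1692 lower of all genes (4283 and 4335 otherwise), since that test asks for a larger change. Leaving out each library gave log2 fold changes of -0.0824 (without TMEM9 KD replicate 1) to 0.290 for EPHA7 and of -0.345 to 0.0755 (without WT replicate 1) for EPHB6, so both changed sign. DESeq2 called 13 of the other family and list genes higher. Leaving out each library gave 8 (without WT replicate 1) to 19 higher and 35 to 42 lower among these, 4 higher and 5 lower among the 10 every time, and 3172 to 4173 higher and 3450 to 4405 lower of all genes. Over the alternatives, log2 fold changes ran from 0.80 to 1.47 for EFNB2 and from -2.74 to -2.58 for EFNB1. The values 1.47 and -2.58 came from the removal of chromosome medians. Where an arm kept 1 library, it was taken to vary like the other. EPHB3 had no value under a minimum mean of 5 CPM, and its 11 counts in TMEM9 KD limit it. The cause of the changes under DESeq2 and the left-out libraries was not tested. Scaling by library size alone moved the share of higher calls to 57.4%, from 49.7%.

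Same-numbered libraries shared only a number (correlation of deviations 0.000474). With a replicate block, 4 of the 10 were higher and 5 lower, 18 and 43 of the other family and list genes, and 4171 and 4266 of all genes.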
